A study of Mus musculus with 8 samples.

Results

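The 439 oligos described here each hold a single pyrimidine run, a pair of adjacent cytosines followed by adenine (CC-A), and no other pair of adjacent pyrimidines on either strand. They were chosen from sequence alone. All runs of 2 or more pyrimidines were located on the printed strand and on its reverse complement, and an oligo was kept when the only run was CC with adenine on its 3′ side. The array holds 122095 different sequences, of which 122086 end in the same 24 bases and were searched. The study stained DNA arrays of universal design, carrying designed oligos of 60 bases, with mouse antibodies against UV lesions, and by its design text it measured how strongly each antibody stains k-mers, the short words of DNA sequence. There were 4 groups of 2 arrays each. They were UV-treated arrays stained with an antibody against cyclobutane pyrimidine dimers (CPD) at a dilution of 1:400, non-UV arrays stained with that antibody at the same dilution, UV-treated arrays stained with an antibody against 6-4 photoproducts (6-4PP) at 1:80, and non-UV arrays stained with the 6-4PP antibody at 1:80. The organism in the labels, mouse, is that of the antibodies, and the DNA is synthetic. The sources used here give neither the UV dose and the staining steps nor how a complementary strand was made.

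Ultraviolet light can join neighbouring pyrimidines of one strand. In a CPD the bases are linked by a cyclobutane ring, and in a 6-4PP by a single bond between them. In general the CPD forms less readily at CC than at TT, its classical site, and TC is the classical site of the 6-4PP. CC is nevertheless the step at which tandem CC to TT mutations, a signature of sunlight exposure in skin, arise.

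The members differ from each other only near the 5′ end. The last 38 bases were the same in all 439, and they alternate between purine and pyrimidine so that they hold no run on either strand. This common end is shown because it sets the background that every member shares.
Common 3′ end of the members: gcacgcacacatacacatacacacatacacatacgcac

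The first 27 bases are shown for a series that carries the main comparison, in which 1 base was exchanged at a time in or beside the run. Capitals mark the run with the base on either side of it, and the rest of the 60 bases is the same in all.
CC before A, the member: cgtatgcacACCAcgtatgtatgcacg
CC before A, 5′ adenine exchanged for guanine, also a member: cgtatgcacGCCAcgtatgtatgcacg
CC before G: cgtatgcacACCGcgtatgtatgcacg
CT before A: cgtatgcacACTAcgtatgtatgcacg
TC before A: cgtatgcacATCAcgtatgtatgcacg
TT before A: cgtatgcacATTAcgtatgtatgcacg

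The other members shown were each nearest to the median 6-4PP response of their class. Capitals mark CCA on the printed strand, or TGG where the CCA lies on the complement.
G-CC-A on the printed strand: cgtatgcgcgtgCCAtatgtatgcacg
A-CC-A on the complement: cgtatgcgtacaTGGtatgtatgcacg
G-CC-A on the complement: tatgcgcatgTGGcgtatgtatgcacg

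Because no other run was allowed, the base on the 5′ side of each CC was a purine and all other bases alternated in kind. The run lay on the printed strand in 216 members, with adenine on its 5′ side in 121 and guanine in 95. It lay on the complement in 223, with 5′ adenine in 132 and 5′ guanine in 91. The first base of the run, counted from 1 at the 5′ end of the printed oligo, lay between 7 and 18, and all but 4 members had it between 7 and 14. The members were on 1 spot in 370 cases and on 5 or more spots in 69, so that 1177 spots per array carried them. The reference throughout is the set of 550 step-free oligos, which hold no adjacent pyrimidines on either strand. Their first 27 bases had a median of 13 G and C, the same as the members.

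Per the file headers, each value is a fluorescence intensity on a linear scale, adjusted by the authors for the local neighbourhood on the array. Levels are given as the median log2 adjusted intensity of a class minus that of the step-free oligos on the same array, so a level of 0 is the signal of DNA with no site for a lesion. A UV effect is the mean level on UV arrays minus that on non-UV arrays. Each was tested with limma (lmFit and eBayes) in 1 fit over the 8 arrays, with Benjamini-Hochberg adjustment over the whole table of classes, and the threshold for a call was an adjusted p of 0.05. Nothing in the labels says that replicate arrays were treated separately, so p-values measure only the spread between these arrays. At most 3 of the members' spots on an array were at the scanner ceiling. Same-numbered arrays of the CPD and 6-4PP antibodies deviated together. The difference between replicates 1 and 2 correlated between the antibodies across all sequences with r = 0.708 after UV and 0.765 without UV, and across members with 0.877 and 0.660. Between UV and non-UV arrays of the CPD antibody the same correlation over all sequences was 0.000789. What the arrays of a number share was not tested. Values of the CPD and 6-4PP antibodies for one sequence are therefore not independent.

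Lone CC before A stained little above step-free DNA after UV. With the 6-4PP antibody the members rose by 0.102 log2 units over step-free oligos, 1.07-fold, and with the CPD antibody the effect was 0.064, 1.05-fold, and did not pass the test. The difference between the effects of the antibodies was also within its error.

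With the 6-4PP antibody the members' median level was 0.104 and 0.115 on the UV arrays, against 0.026 and -0.010 on the non-UV arrays. The UV arrays were thus both higher than either non-UV array. The UV effect of 0.102 (SE 0.031, 95% interval 0.027 to 0.177, n = 2 arrays per group) had a limma adjusted p of 0.0158. Of the 197 lone-run classes in this table, 99.5% were past the threshold upwards with the 6-4PP antibody. CC before A was therefore called as nearly all classes were. The call rested on the second non-UV array, since without it the effect was 0.084 and the adjusted p 0.0742. In intensity units the members' median exceeded the step-free median by 154.3 ± 11.6 after UV and by 9.3 ± 25.5 without UV (SD, n = 2), where the step-free medians were 1953 ± 2.05 and 1371.5 ± 177. Quantile normalization of the arrays also ended the call, at -0.005, and against the array's median over all sequences, most of which hold many steps, the members fell by 1.66.

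With the CPD antibody the median level was 0.062 and 0.059 on the UV arrays, against 0.0065 and -0.014 on the non-UV arrays. The groups did not overlap here either, but the UV effect of 0.064 (SE 0.031, interval -0.011 to 0.139) had an adjusted p of 0.0979. The share of classes past the threshold upwards with this antibody was 80.7%. The excess over step-free DNA was 68.8 ± 3.18 intensity units after UV and -2.2 ± 10.8 without UV, where the step-free medians were 1609.9 ± 10.2 and 1134 ± 121. Under limma with a mean-variance trend and robust moderation the same effect passed, with an adjusted p of 0.0063, and among oligos on 5 or more spots it was 0.053 with an adjusted p of 0.0162. The CPD effect minus the 6-4PP effect was -0.038 (SE 0.044, interval -0.144 to 0.069, adjusted p = 0.446). For this difference 84.3% of classes were past the threshold in either direction.

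CC before G, taken as a pooled class, lay closer to step-free DNA than the members, but the difference between these classes did not pass where it was tested. Its oligos had a median of 14 G and C in the first 27 bases, against 13 in the members. A 3′ guanine in place of adenine itself raises that count. Its 565 oligos had a CPD level of 0.024 and 0.030 on UV arrays, against 0.006 and -0.004 on non-UV arrays, and an effect of 0.026 (SE 0.029, adjusted p = 0.428). Its 6-4PP level was 0.074 and 0.079 on UV arrays, against 0.016 and 0.006 on non-UV arrays, and its effect of 0.066 (SE 0.029, adjusted p = 0.0629) was the only one of the table that did not pass with that antibody. When CC before G was split by strand and 5′ base, A-CC-G on the printed strand did pass with 6-4PP. Its effect was 0.120 (SE 0.028, limma adjusted p = 0.00303), and the other CC-G classes did not pass. Pooled over strands and 5′ bases, the other lone 2-base runs before adenine had the larger UV effects. The CPD effect was 0.144 for TC (412 oligos), 0.279 for CT (394 oligos) and 1.68 for TT (400 oligos). The 6-4PP effect was 0.870 for TC, 0.203 for CT and 1.04 for TT. With the CPD antibody the order of these runs from low to high was thus CC, TC, CT and TT, and with the 6-4PP antibody it was CC, CT, TC and TT. These pooled classes were not tested against each other, and runs in the same flanks are compared after the split by flank.

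The 6-4PP response was higher in members with adenine on the 5′ side of the run than in those with guanine. Split by strand and 5′ base, 3 of the 4 classes of members passed with the 6-4PP antibody, where 92.5% of the 268 classes in the table were past the threshold upwards, and 1 of 4 passed with the CPD antibody, where 69.8% were.

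A-CC-A on the printed strand had the highest 6-4PP level, at 0.185 and 0.238 on UV arrays, against 0.068 and -0.018 on non-UV arrays. Its UV effect was 0.187 (SE 0.037, adjusted p = 0.00132), or 1.14-fold. Its CPD level was 0.107 and 0.095 on UV arrays, against 0.018 and -0.0003 on non-UV arrays, an effect of 0.092 (SE 0.037, adjusted p = 0.0545). This CPD effect did pass in limma with the CPD arrays alone (adjusted p = 0.0322), with trend and robust moderation (0.0293) and with classes of at least 20 (0.0444). It also passed on 5 or more spots (0.079, adjusted p = 0.0186).

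A-CC-A on the complement was the class that passed with both antibodies. Its 6-4PP level was 0.0995 and 0.135 on UV arrays, against 0.019 and -0.005 on non-UV arrays, and the effect was 0.110 (SE 0.029, adjusted p = 0.00606). Its CPD level was 0.067 and 0.074 on UV arrays, against -0.021 and -0.018 on non-UV arrays, and the effect was 0.090 (SE 0.029, adjusted p = 0.0217). The CPD call was lost without either of the non-UV CPD arrays, at adjusted p = 0.114 and 0.105. Without the authors' local adjustment both calls were lost, at adjusted p = 0.09996 for CPD and 0.0756 for 6-4PP. The CPD call was also lost in limma with class means (adjusted p = 0.140) and with a reference adjusted for G and C (0.0657). It was lost as well with classes of at least 5 (0.0604) and on 5 or more spots (0.0722). Quantile normalization ended the 6-4PP call (0.0097, adjusted p = 0.938).

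G-CC-A on the printed strand had a 6-4PP level of 0.069 and 0.093 on UV arrays, against 0.013 and 0.007 on non-UV arrays. The effect of 0.071 (SE 0.0295, adjusted p = 0.0465) lay just inside the threshold, and it lost the call without any one of the 4 arrays of this antibody (adjusted p = 0.0700 to 0.178), without either non-UV CPD array (0.0799), and with the replicate number as a block (0.06395). It was also lost with the 6-4PP arrays alone (0.0720), with classes of at least 5 (0.103) and on 5 or more spots, where the effect was 0.0017 (adjusted p = 0.950), and it was -0.010 with quantile normalization. Its CPD effect was 0.046 (SE 0.0295, adjusted p = 0.204).

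G-CC-A on the complement did not rise above step-free DNA with either antibody at this precision. The 6-4PP level was -0.010 and 0.010 on UV arrays, against 0.010 and -0.015 on non-UV arrays, so the groups overlapped. The 6-4PP effect was 0.003 (SE 0.029, interval -0.063 to 0.070, adjusted p = 0.923) and the CPD effect 0.024 (SE 0.029, interval -0.043 to 0.090, adjusted p = 0.489).

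Differences between classes were tested themselves, in a table of 72 contrasts that each change 1 feature of a lone 2-base run. With the CPD antibody 65.3% of all contrasts were past the threshold in either direction, and with the 6-4PP antibody 75.0%. The members enter 20 of them with each antibody, and 24 of these 40 tests passed.

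The 6-4PP response of CC-A was higher with 5′ adenine than with 5′ guanine on both strands, though the size and the call depended on the processing. On the printed strand the difference, A minus G, was 0.117 and 0.144 on UV arrays, against 0.055 and -0.025 on non-UV arrays, and the contrast was 0.115 (SE 0.0285, adjusted p = 0.00626). On the complement it was 0.109 and 0.125 on UV arrays, against 0.009 and 0.010 on non-UV arrays, and the contrast was 0.107 (SE 0.019, adjusted p = 0.000993). With the CPD antibody the contrast was 0.066 on the complement (SE 0.019, adjusted p = 0.0150) and 0.046 on the printed strand (SE 0.0285, interval -0.020 to 0.112, adjusted p = 0.172). The CPD contrast on the complement lost its call without non-UV replicate 1 (adjusted p = 0.0979) or UV replicate 1 (0.0729). It also lost it without the local adjustment (0.036), with class means (0.041), with a reference adjusted for G and C (0.052), with quantile normalization (0.17) and on 5 or more spots (0.018), at adjusted p of 0.0842 to 0.708. With class means in place of medians neither 6-4PP contrast passed (0.065 and 0.069, adjusted p = 0.118 and 0.0925), and without the local adjustment the one on the complement did not (0.032, adjusted p = 0.362). The contrast on the complement also did not pass on 5 or more spots (0.046, adjusted p = 0.183), and with quantile normalization it was 0.011 there and -0.045 on the printed strand. No difference between the antibodies in these contrasts passed, where 54.2% of contrasts did. With same-numbered arrays of the antibodies as a block, an alternative chosen after seeing the data, the adjusted p of these differences were 0.1465 and 0.392 in limma.

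The 6-4PP response was higher with the run on the printed strand. Printed minus complement was 0.076 for A-CC-A (SE 0.025, adjusted p = 0.0206) and 0.068 for G-CC-A (SE 0.018, adjusted p = 0.00947). The corresponding CPD contrasts were 0.002 (interval -0.054 to 0.059) and 0.022 (interval -0.020 to 0.065), and neither passed. For A-CC-A the 6-4PP contrast was lost without non-UV replicate 2 (0.046, adjusted p = 0.139) or UV replicate 2 (adjusted p = 0.0888), and for G-CC-A without the local adjustment (0.041, adjusted p = 0.227). Among oligos on 5 or more spots the contrasts were 0.020 and -0.051.

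For 3′ adenine against guanine the contrast passed in 1 of the 4 settings, 5′ adenine on the complement, and which setting passed depended on the processing. There the CPD contrast was 0.0875 (SE 0.019, adjusted p = 0.00376) and the 6-4PP contrast 0.074 (SE 0.019, adjusted p = 0.00826). The CPD difference between these classes was 0.069 and 0.067 on UV arrays, against -0.025 and -0.014 on non-UV arrays. With 5′ adenine on the printed strand the contrasts were 0.039 with CPD (interval -0.025 to 0.104, adjusted p = 0.232) and 0.067 with 6-4PP (interval 0.002 to 0.131, adjusted p = 0.0568). Both calls on the complement were lost with class means (0.044 and 0.021), without the local adjustment (0.050 and 0.014), on 5 or more spots (0.035 and 0.050, adjusted p = 0.557 and 0.183), and the 6-4PP call also with quantile normalization (0.016). Conversely the 6-4PP contrast for A-CC-A on the printed strand passed without the local adjustment (0.074, adjusted p = 0.0411), with trend and robust moderation (adjusted p = 0.0130), on the linear scale (0.0474) and without non-UV replicate 1 (0.104, adjusted p = 0.00926). After 5′ guanine the contrasts lay between -0.051 and 0.030 and did not pass. On the complement the 6-4PP contrast after 5′ guanine did pass downwards under some processing (limma). It was -0.051 with trend and robust moderation (adjusted p = 0.0359) and -0.061 with a reference adjusted for G and C (0.0480). On 1 spot only it was -0.079 (0.0299), and on 5 or more spots it was 0.045 and did not pass (0.184). Pooled over strands and 5′ bases, A minus G on the 3′ side was 0.038 with CPD and 0.036 with 6-4PP (SE 0.034 each), and neither passed in a separate table of 100 contrasts in which 16.0% and 32.0% did.

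Exchanging the first cytosine for thymine, which turns CC-A into TC-A, made the largest difference in 6-4PP signal after 5′ adenine among single-base exchanges. On the printed strand CC minus TC was -1.73 and -1.72 on UV arrays, against 0.037 and -0.069 on non-UV arrays, a contrast of -1.71 (SE 0.032, adjusted p = 2.64e-10). On the complement it was -0.907 (SE 0.035, adjusted p = 2.32e-08). After 5′ guanine the contrast was -0.183 on the printed strand and -0.102 on the complement, and both passed. With quantile normalization both calls were lost (-0.156 and -0.049, limma adjusted p = 0.514 and 0.698). The one on the complement was also lost without the local adjustment (-0.058, adjusted p = 0.078) and with class means (-0.072, adjusted p = 0.0863). In intensity above step-free DNA on UV arrays, A-CC-A on the printed strand had 308.6 ± 58.1 and A-TC-A 5519 ± 173 (SD, n = 2), so that A-CC-A reached 5.59% of the excess of A-TC-A.

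With the CPD antibody the same exchange passed in 1 of 4 settings, A-CC-A on the printed strand, at -0.182 (SE 0.032, adjusted p = 0.00113). That call was lost with quantile normalization (-0.272, limma adjusted p = 0.202). The other CPD contrasts lay between -0.061 and -0.027. CC minus TC differed between the antibodies in 3 of 4 settings.

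Exchanging the second cytosine, which gives CT-A, passed with the CPD antibody in all 4 settings, though not under every processing. CC minus CT was -0.494 for A-CC-A and -0.212 for G-CC-A on the printed strand, and -0.124 and -0.111 on the complement, with SEs of 0.023 to 0.030 and adjusted p of at most 0.00247. With quantile normalization only A-CC-A on the printed strand kept this call. The others were then -0.277 for G-CC-A on the printed strand, and -0.092 and -0.177 for A-CC-A and G-CC-A on the complement (limma adjusted p = 0.163 to 0.435). The CPD excess of A-CC-A on the printed strand over step-free DNA was 117.0 ± 10.6 intensity units, 14.6% of the 799.3 ± 115 units of A-CT-A. With the 6-4PP antibody the contrast passed for A-CC-A on the printed strand only, at -0.428 (SE 0.030, adjusted p = 1.74e-06), and with quantile normalization it was -0.240 and did not pass (limma adjusted p = 0.1845). For G-CC-A on the printed strand it was -0.00066 (interval -0.055 to 0.054). For A-CC-A on the complement it was -0.020, and without the local adjustment it was -0.135 and passed.

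TT in place of CC changed the CPD signal most. CC minus TT was -2.85 for A-CC-A and -2.00 for G-CC-A on the printed strand, and -1.20 and -0.748 on the complement. The CPD excess of A-CC-A on the printed strand was 1.09% of that of A-TT-A, and that of G-CC-A was 0.995% of that of G-TT-A. With the 6-4PP antibody CC minus TT was -2.62 for A-CC-A on the printed strand, -1.17 on the complement and -0.241 for G-CC-A on the printed strand, all past the threshold. The call for G-CC-A on the printed strand was lost with quantile normalization (-0.148, limma adjusted p = 0.411) and on the linear scale (adjusted p = 0.110). For G-CC-A on the complement CC minus TT was 0.004 (SE 0.040, interval -0.089 to 0.096, adjusted p = 0.939), and G-TT-A there was itself at -0.025 and 0.022 on the UV arrays, against -0.023 and 0.022 on the non-UV arrays. Without the local adjustment this contrast was -0.126 and passed (adjusted p = 0.00509).

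The single-base exchanges were also compared between single oligos that are otherwise identical, 80 to 122 pairs per contrast. TT in place of CC and the strand of the run were not compared in this way. In a table of 64 matched contrasts 71.9% passed with CPD and 73.4% with 6-4PP. For 5′ adenine minus guanine the UV effect on the median pair difference with 6-4PP was 0.117 on the printed strand (88 pairs, SE 0.030, adjusted p = 0.0033) and 0.066 on the complement (85 pairs, SE 0.028, adjusted p = 0.0479). With CPD it was -0.005 (SE 0.030, interval -0.070 to 0.060) and 0.061 (SE 0.028, adjusted p = 0.0646). Between antibodies, CPD minus 6-4PP, the printed-strand contrast differed by -0.122 (SE 0.042, adjusted p = 0.0216), and 60.9% of all matched contrasts differed so. The CPD call for 5′ adenine on the complement was thus not made in matched pairs, and the one for the 3′ base was, at 0.096 (122 pairs, SE 0.029, adjusted p = 0.00831) with CPD and 0.068 (adjusted p = 0.0492) with 6-4PP. For CC minus TC with 6-4PP, the contrast for G-CC-A on the complement was -0.060 (SE 0.031, adjusted p = 0.0973) in matched pairs and lost its call, and for CC minus CT there it was -0.108 (SE 0.027, adjusted p = 0.00308) and gained one.

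The series of oligos shown above shows these exchanges on single spots. The member cgtatgcacACCAcgtatgtatgcacg had a 6-4PP level of 0.42 and 0.36 on UV arrays, against 0.005 and 0.43 on non-UV arrays, so its groups overlapped. With TC in place of CC the levels were 2.73 and 2.54 on UV arrays, against -0.005 and 0.19 on non-UV arrays. With CT they were 1.10 and 1.29 on UV arrays, against -0.17 and 0.38 on non-UV arrays, and both steps with 1 thymine stood clear of the member. With TT they were 3.50 and 3.60 on UV arrays, against 0.505 and -0.05 on non-UV arrays. The order of the runs on the UV arrays was therefore CC, CT, TC and TT, as in the classes. In CPD signal the member had 0.39 and 0.08 on UV arrays, against 0.13 and 0.26 on non-UV arrays, while the TT oligo had 3.49 and 3.34 on UV arrays, against -0.16 and -0.09 on non-UV arrays. The CT oligo had 0.78 and 1.11 on UV arrays, against 0.03 and 0.17 on non-UV arrays. The TC oligo had 0.21 and 0.60 on UV arrays, against 0.05 and 0.04 on non-UV arrays. It thus lay below the member on UV replicate 1, unlike in the classes. The exchange of the 5′ adenine for guanine left a 6-4PP level of 0.05 and 0.14 on UV arrays, against 0.0009 and -0.01 on non-UV arrays. Its CPD level was 0.38 and 0.29 on UV arrays, against 0.10 and -0.009 on non-UV arrays. That CPD effect of 0.289 was above the member's 0.042, unlike in the classes. The oligo with CC before G had a 6-4PP level of 0.37 and 0.31 on UV arrays, near the member's, against 0.13 and 0.72 on non-UV arrays.

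Position within the first bases of the oligo made no difference that could be detected. Runs starting at bases 7 to 10 minus those at 11 to 14 differed by -0.070 to 0.027 in the 4 classes and the 2 antibodies, and 0 of 8 contrasts passed after adjustment (limma). The unadjusted p was under 0.05 in 1 of them, G-CC-A on the complement with 6-4PP (interval -0.138 to -0.001). In A-CC-A on the printed strand the 6-4PP medians at positions 7, 9, 11 and 13 were 0.185, 0.188, 0.252 and 0.125 on UV replicate 1 and 0.214, 0.250, 0.254 and 0.214 on UV replicate 2.

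The base next but one was T or C by construction. On the 3′ side, T minus C after the adenine gave 6-4PP contrasts of -0.073 for A-CC-A on the printed strand and -0.079 on the complement, neither past the threshold (adjusted p = 0.101 and 0.0832). On the 5′ side, T minus C passed for G-CC-A on the complement with 6-4PP, at -0.107 (SE 0.035, adjusted p = 0.0112), where the medians with T were -0.042 and 0.005 on UV arrays, against 0.005 and 0.022 on non-UV arrays. This was 1 of 4 such contrasts with that antibody and 0 of 4 with CPD (unadjusted p of at least 0.1158), and the difference between the antibodies there was 0.16, where 24% of the added contrasts differed.

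The spread among members was set beside that of step-free oligos, of which fewer are on a single spot (229 of 550, against 370 of 439 members), so that the widths are not directly comparable. On the 6-4PP UV arrays the members' lower and upper quartiles were -0.043 and 0.228 on replicate 1 and -0.026 and 0.264 on replicate 2, and those of the step-free oligos were -0.099 and 0.104 on replicate 1 and -0.107 and 0.107 on replicate 2. Without UV the members' quartiles with that antibody were -0.048 and 0.113 on replicate 1 and -0.112 and 0.115 on replicate 2, and those of the step-free oligos were -0.0515 and 0.060 on replicate 1 and -0.095 and 0.1095 on replicate 2. The 95th percentile of the step-free oligos was passed by 15.3% and 18.5% of members on the 6-4PP UV arrays, against 8.43% and 4.78% on the non-UV arrays. On the CPD UV arrays it was passed by 53 and 44 of the 439 members, against 34 and 19 on the non-UV arrays. A-CC-A on the printed strand had the most such members, 26.4% and 31.4% on the 6-4PP UV arrays, and G-CC-A on the complement the fewest, 7.69% and 8.79%. For comparison, CC before G had 14.7% and 15.4% of its oligos above that level on the same arrays, and TC before A had 69.7% and 70.1%.

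Levels did not overlap and were higher after UV for 161 of 439 members with 6-4PP (36.7%), where the share over all sequences was 91.1%. With CPD the count was 154 (35.1%), where the share over all sequences was 83.5%. Step-free oligos did so in 17.8% of cases with 6-4PP and 22.9% with CPD. Levels did not overlap and were lower after UV for 50 members with 6-4PP (11.4%) and 74 with CPD (16.9%), beside 1.0% and 3.39% of all sequences. In A-CC-A on the printed strand 59 of 121 members were higher on both UV arrays with 6-4PP (48.8%), and in G-CC-A on the complement 22 of 91 (24.2%).

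One by one, few members passed the test over all 122086 sequences. With 6-4PP 51 members were higher (11.6%) and 13 lower, beside 86.0% and 0.202% of all sequences. With CPD 23 were higher (5.24%) and 10 lower, beside 70.5% and 0.471%. Among step-free oligos 18 of 550 were called higher with 6-4PP (3.27%) and 23 lower, and 15 higher (2.73%) and 12 lower with CPD. For CC before G 59 of 565 were called higher with 6-4PP (10.4%) and 27 lower, and 14 higher (2.48%) and 20 lower with CPD. Of the 51 members called with 6-4PP, 25 were A-CC-A on the printed strand, 13 were G-CC-A on the printed strand, 9 were A-CC-A on the complement and 4 were G-CC-A on the complement. Of the 69 members on 5 or more spots, 3 were called higher with 6-4PP and 0 with CPD. The counts depend on single arrays. Without non-UV replicate 2 of the 6-4PP antibody 27 members were higher and 27 lower, and without non-UV replicate 1 or 2 of the CPD antibody 7 and 5 were higher with CPD.

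The members with the largest single effects were high on 1 array number only. The member cgtatgcatacgCCAtatgtatgcacg had a CPD level of 5.57 and 0.02 on the UV arrays, against -0.21 and 0.0023 on the non-UV arrays, and a 6-4PP level of 4.84 and 0.10 on the UV arrays, against 0.06 and 0.17 on the non-UV arrays. The member tatgcataCCAtgtgtatgtatgcacg was the reverse, with a CPD level of -0.15 and 4.82 on the UV arrays, against 0.01 and 0.145 on the non-UV arrays. Its 6-4PP level was 0.33 and 4.77 on the UV arrays, against 0.36 and -0.23 on the non-UV arrays. Neither passed the test (adjusted p of at least 0.240).

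Such excursions, levels over 1 on any array, were seen in 25 members, each on a single spot, and in 13 of them on a UV array. UV replicate 1 had 4 with CPD and 8 with 6-4PP, 4 of them the same members. UV replicate 2 had 4 of each antibody, 3 of them the same. The non-UV arrays had 1 and 3 with CPD and 5 and 6 with 6-4PP. No excursion was seen in both replicates of a group. Step-free oligos, 550 in number and less often on a single spot, also had levels over 1. Their counts were 3 and 3 on the CPD UV arrays, against 1 and 7 on the non-UV arrays. With 6-4PP they were 6 and 1 on the UV arrays, against 4 and 10 on the non-UV arrays. The lowest effects were of the same kind on non-UV arrays. The member cgtatgcacaCCAcatatgtatgcacg had a CPD level of 0.29 and 0.60 on the UV arrays, against 0.002 and 3.61 on the non-UV arrays, and tatgcatgTGGtatgtatgtatgcacg a 6-4PP level of 0.58 and 0.36 on the UV arrays, against 0.11 and 3.69 on the non-UV arrays.

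Members printed on several spots stayed within narrower bounds. The highest 6-4PP effect among them was that of tatgcaCCAtgtgtgtatgtatgcacg on 11 spots, with 0.17 and 0.63 on the UV arrays, against 0.24 and -0.05 on the non-UV arrays (effect 0.31, adjusted p = 0.24). The member tatgcacaCCAcgcgtatgtatgcacg, also on 11 spots, had 0.39 and 0.34 on the UV arrays, against 0.06 and 0.16 on the non-UV arrays, and passed the test (effect 0.26, adjusted p = 0.0356). Its CPD level was 0.17 and 0.07 on the UV arrays, against 0.01 and 0.08 on the non-UV arrays, and did not pass (adjusted p = 0.49). The median SD between the spots of one such member was 0.203 to 0.225 log2 units on the UV arrays, against 0.109 to 0.249 on the non-UV arrays. The highest SD of a member was 0.847 to 1.60 on the UV arrays, against 1.26 to 1.68 on the non-UV arrays, so single spots of these members could also lie far off.

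The order of members was partly shared by replicate arrays after UV. Across the 439 members Spearman's rho between UV replicates was 0.52 for CPD and 0.52 for 6-4PP, and between non-UV replicates 0.045 and 0.14. Pearson's r between UV replicates was 0.11 and 0.18. Between the antibodies on same-numbered UV arrays rho was 0.55 and 0.60, and between antibodies on UV arrays of different number 0.34 and 0.38. Oligos are not independent replicates, and arrays of one design share printing and base composition, so these correlations describe the arrays and carry no test.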

How the data were processed

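Each of the 8 arrays came as 1 table with a row per spot. Per the file headers, the columns hold the scanner intensity, a normalised intensity and an intensity adjusted for the neighbourhood. In the deposited values the normalised intensity equals the scanner's, and the adjusted one equals it times an array constant over the local median. No spot was marked as bad. The adjusted intensity was used, as log2, averaged over the spots of a sequence, minus the array's step-free median.

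Classes needed 10 or more oligos. limma 3.58.1 in R 4.3.3 was fitted to each table over all 8 arrays, with Python 3.11.15, numpy 2.4.6 and pandas 2.3.3 for the tables. The fits were tested on simulated data. The precision is limited by 2 arrays per group. The named oligos are the highest and lowest UV effects per antibody, those nearest to the class medians, and 1 series of single exchanges. The repeat-printed oligos and that series were chosen after values had been seen. The members and lists were chosen with earlier results of these data known.

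The replicate number was tried as a block, since all groups share it. Deviations of same-numbered arrays did not correlate between UV and non-UV arrays, so the number does not pair these. Other alternatives were the local adjustment, centring, quantile normalization, dim and saturated spots, class means, class size, G and C content, scale, spot number and leaving out each array.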

Additional observations from a re-analysis of the deposited data

Results flagged for a closer look

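The results here are comparisons of the members in which the CPD and 6-4PP antibodies differed by a test of the difference itself (limma, n = 2 arrays per group). Values are the CPD contrast minus the 6-4PP contrast, in log2 units. For CC minus TC the difference was 1.5257 for A-CC-A on the printed strand, 0.8806 for A-CC-A on the complement and 0.1221 for G-CC-A on the printed strand. In matched pairs the values were 1.5807, 0.8846 and 0.1465 for the same classes. For CC minus CT it was -0.104 for A-CC-A on the complement and -0.2113 for G-CC-A on the printed strand. Matched pairs gave -0.098 (adjusted p = 0.0715) for A-CC-A on the complement, where the call was lost, and -0.2427 for G-CC-A on the printed strand. For CC minus TT it was -0.222 for A-CC-A and -1.7542 for G-CC-A on the printed strand, and -0.7513 for G-CC-A on the complement. For 5′ adenine minus guanine on the printed strand matched pairs gave -0.1219. For T minus C before the 5′ guanine on the complement it was 0.1619. The members' own levels lay near the step-free oligos with both antibodies, so the sizes of the CC minus TC and CC minus TT differences were mostly those of the thymine-containing classes. Same-numbered arrays of the antibodies deviated together, and with them as a block, an alternative chosen after seeing the data, the same 8 of 20 contrasts, 1 of 13 added contrasts and 5 of 14 matched contrasts differed between the antibodies.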

How the results depend on the processing

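Most results kept their direction and their side of the threshold, but the effects of the members are small and several calls depend on the processing. Where no value shows it, the cause was not tested.

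For the CPD effect of CC before A (0.064), limma with trend and robust moderation left 0.06394 and made the call. Using only oligos on 5 or more spots did so too (0.05285). No centring gave 0.5741, but that value includes the rise of the step-free oligos themselves. Their median intensity was 1609.9 on CPD UV arrays, against 1133.6 on the non-UV arrays, so the call without centring says nothing about the members. Leaving out the dimmest 25% kept 12 step-free oligos and 11 members chosen by the signal under test, so its value of 0.3863 says nothing about the effect. Centring on the array median gave -1.077. Leaving out each array gave 0.05394 to 0.07393. For the 6-4PP effect (0.102), array median centring gave -1.663 and quantile normalization -0.005303, and leaving out each array gave 0.08358 to 0.1199. For the difference between the antibodies, array median centring gave 0.5859 and quantile normalization 0.09135, with -0.05593 to -0.01965 over the arrays left out.

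Of the 4 classes by strand and 5′ base, 1 passed with CPD. The count was 2 with the CPD arrays alone, with trend and robust moderation and with classes of at least 20. It was 0 without the local adjustment, with array median centring, with means, with a reference adjusted for G and C and with classes of at least 5, 4 with no centring, and 0 to 2 over the arrays left out. With 6-4PP 3 passed, against 0 with array median centring and with quantile normalization, and 2 to 3 over the arrays left out. Of the 40 tests of contrasts 24 passed, against 10 with quantile normalization and 23 to 26 over the arrays left out. Of members called higher there were 23 with CPD, against 7 without the local adjustment, 0 with array median centring, 304 with no centring, 6 with quantile normalization, 0 with the dimmest left out, 8 on the linear scale and 5 to 29 over the arrays left out. With 6-4PP there were 51, against 26 with these arrays alone, 33 without the local adjustment, 0 with array median centring, 319 with no centring, 6 with quantile normalization, 0 with the dimmest left out and 27 to 53 over the arrays left out. The counts of classes and of members with no centring include the rise of the step-free oligos, so they say nothing about the members.

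These values changed sign. With array median centring the CPD effects were -1.049 and -1.095 for A-CC-A and G-CC-A on the printed strand, and -1.051 and -1.117 on the complement. The 6-4PP effects in that order were -1.578, -1.693, -1.654 and -1.762. With quantile normalization the 6-4PP effects were -0.05545 and -0.01046 on the printed strand and -0.001691 for G-CC-A on the complement. The strand contrasts were then -0.2187 and -0.002602 with CPD and -0.06514 and -0.008765 with 6-4PP, for A-CC-A and G-CC-A. The 5′ contrast on the printed strand was -0.04578 with CPD and -0.04499 with 6-4PP, the 3′ contrast for A-CC-A on the printed strand with CPD was -0.01005, CC minus TC for A-CC-A on the complement with CPD was 0.02049, and with 6-4PP CC minus CT for G-CC-A on the printed strand was 0.05611 and CC minus TT on the complement -0.03097. With means the CPD 5′ contrast on the printed strand was -0.02501, CC minus TC for G-CC-A was 0.03229 on the printed strand and 0.01218 on the complement, and the 6-4PP CC minus CT contrast for G-CC-A on the printed strand was 0.03633. With the reference adjusted for G and C the CPD strand contrast for A-CC-A was -0.007423 and that 6-4PP contrast 0.01694. On 1 spot only, the CPD strand contrast for A-CC-A was -0.02651, the 6-4PP effect of G-CC-A on the complement -0.0121, its CC minus TT contrast -0.007657, and CC minus CT for G-CC-A on the printed strand 0.02346. On 5 or more spots the strand contrast for G-CC-A was -0.02273 with CPD and -0.05076 with 6-4PP, and the 3′ contrasts for G-CC-A were -0.001448 and -0.03826 on the printed strand and 0.03524 and 0.04471 on the complement. Without the local adjustment CC minus TT for G-CC-A on the complement with 6-4PP was -0.1256.

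Leaving out arrays turned the sign of values near 0. These were the CPD strand contrast for A-CC-A (-0.008251 to 0.01274), the CPD 3′ contrast for G-CC-A on the complement (-0.03732 to 0.01181), and with 6-4PP the effect of G-CC-A on the complement (-0.009544 to 0.01557), its CC minus TT contrast (-0.03123 to 0.03891), CC minus CT for A-CC-A on the complement (-0.04236 to 0.002824) and for G-CC-A on the printed strand (-0.01058 to 0.009259).

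With the replicate block the adjusted p was 0.1131 for the CPD effect, 0.02143 for the 6-4PP effect and 0.4587 for their difference. The counts were 1 and 2 classes, 24 contrasts, and 27 and 48 members. The block changed no call of a class or contrast other than G-CC-A on the printed strand with 6-4PP (0.06395). An array pairing between the antibodies, chosen after seeing the data, gave a difference of -0.03779 (adjusted p = 0.3614). The matched pairs, the spot numbers and the position and next-base contrasts were also chosen after seeing the data. Slide as a block was not run because the files used here name no slide, and the planned contrast with runs at base 19 and above was not run because no class reached 10 oligos there. With the dimmest left out the classes and contrasts gave no value.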
